A study of Mus musculus with 6 samples.

Results

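Interferon response genes were followed in regulatory T cells from mouse mesenteric lymph nodes, on 6 Affymetrix arrays. The set holds 40 genes named for their known place in the interferon response. The rule uses no measured value, but the set was put together with earlier results of these arrays known. Of these, 38 had a probe set annotated to them alone, out of 18193 genes so measured, and the probe set with the highest mean level stood for each gene. The set comprises 5 members of the OAS family, 3 of the IFIT family, 6 interferon-induced GTPases of the GBP and IRG families, 13 other effectors, 4 nucleic acid sensors, 6 transcription factors and feedback regulators and 3 antigen-processing genes. Isg15 was covered only by a probe set shared with another gene and Ifi44 by none of its own, so neither was analysed here.

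Type I interferons signal through the receptor chains Ifnar1 and Ifnar2 and the kinases Jak1 and Tyk2 to a complex that holds Stat2 and Irf9. That complex binds interferon-stimulated response elements, whereas interferon gamma acts on gamma-activated sequences and induces the GBP and IRG GTPases strongly. The induced proteins sense and degrade viral RNA, block translation, disrupt the vacuoles of intracellular pathogens and feed back on the signal. In CD4 T cells, regulatory T cells included, both kinds of interferon are known to induce such genes.

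The first group, called iTreg in the labels, had 3 arrays of CD4+ Foxp3+ Nrp- cells from TBmc mice given 1% ovalbumin by mouth for 1 week. In TBmc mice all T cells bear the same ovalbumin-specific receptor and all B cells the same antibody receptor, and recombinase is missing, so regulatory T cells arise there in the periphery after feeding. The second group had 3 arrays of total CD4+ Foxp3+ regulatory T cells from Balb/c wild type animals whose Foxp3 is marked by GFP. Mice of both groups were 4 to 6 weeks old, and the mesenteric lymph nodes were the source throughout. Genotype, receptor repertoire and the labelled gate differ between the groups together and cannot be told apart. The labels do not say whether the wild-type mice were fed ovalbumin, or whether the replicates came from separate mice, so p-values measure only the spread between these arrays. The strain label of iTreg replicate 1 reads Balb/c alone, and the cell type label of wild-type replicate 1 says Nrp-. Nrp1 itself had signals of 252, 133 and 238 on the iTreg arrays and of 708, 862 and 1189 on the wild-type arrays, so wild-type replicate 1 lay with its own group on this gene.

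Signals are the deposited linear intensities, scaled to the same trimmed mean of 150.0 on every array. Differences are in log2(signal + 16), iTreg minus wild type, so that a difference of 1 is a doubling well above background, and changes of dim genes are understated. Array medians ran from 24.3 to 27.5 in iTreg and from 21.1 to 32.3 in wild type, and the arrays correlated with each other at 0.917 to 0.965. The highest signal of the 27 bacterial control probe sets that had received no spike was 28.5, which is used below as a mark for background. The log2 ratio of 3′ to 5′ signal of Gapdh, a sign of RNA quality, was 2.48 to 3.38 in iTreg and 2.28 to 2.53 in wild type, and its part in the results was not tested. Summed over cells, a lower signal may be less RNA in each cell or fewer cells of a type, and bulk arrays do not separate these.

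No interferon gene passed the test for a difference between the groups once p-values were adjusted over all genes. None of the 35 members tested passed an adjusted p of 0.05 in limma with Benjamini-Hochberg adjustment over 10916 genes, against 3 of all genes, or 0.0275%. Those 3 genes, named after their values were seen, were Flicr, Nt5e and Trav12n-1, all lower in iTreg. At an unadjusted p under 0.05, 5 members were higher in iTreg (Oas2, Ifit1, Ifit2, Parp14 and Dhx58), which is 14.3% against 3% of all genes. At the same threshold 3 members were lower (Oas3, Gbp3 and Ifi35), which is 8.57% against 4.58%. Oas3 entered the test only through wild-type replicates 2 and 3, so its place among the lower members was set in part by the filter. With all arrays scaled to a common median, the members split 6 higher and 2 lower, and all genes 422 higher and 284 lower in place of 328 and 500. The groups did not overlap for 5 members with higher iTreg signals and for 3 with lower ones, Oas3 again included, against 5.1% and 7.78% of all genes.

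The subfamily medians lay on both sides of 0. Over all 38 measured members the median difference was 0.14, with 24 above 0 and 14 below, beside a median of -0.0053 over all 18193 genes, of which 8976 were above 0. The members' median was 0.25 with arrays scaled to a common median and 0.26 with a pseudocount of 1. It went to 0.053 without iTreg replicate 2 and to 0.39 without iTreg replicate 3. The IFIT genes had a median of 0.84 with 3 of 3 above 0, and the sensors 0.75 with 4 of 4. The OAS genes had a median of 0.57 with 4 of 5 above 0, which was 0.94 with a pseudocount of 1 and 0.23 with 64, and 0.25 to 0.89 with an array left out. The value 0.57 is that of Oasl1, which was not tested and exceeded the background mark on 1 iTreg array and no wild-type array. Oasl2, also counted above 0, was below that mark on every array. With a pseudocount of 1 the OAS median lay above that of IFIT, which was then 0.89. For the transcription factors and feedback regulators the median was 0.39 with 4 of 6 above 0. The 11 measured other effectors had a median of 0.13 with 7 above 0. The GBP and IRG GTPases lay near 0, at -0.088 with 2 of 6 above 0, a sign that turned to 0.033 with arrays scaled to a common median. The antigen-processing genes were at -0.27 with 0 of 3 above 0. Differences between the subfamilies were not tested.

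**Figure D1:**
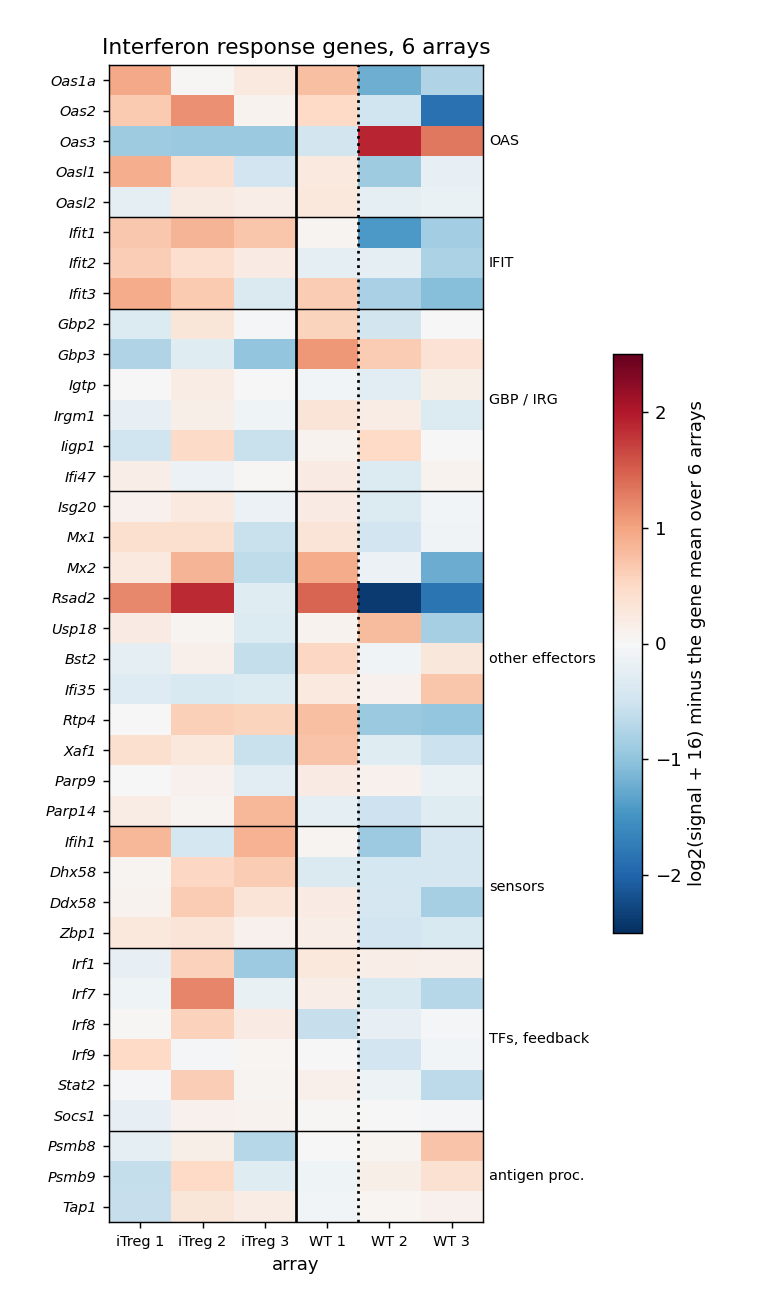
Colours show each measured member's log2(signal + 16) on each array minus its mean over the 6 arrays, with genes in rows by subfamily and arrays in columns. Wild-type replicate 1 shows red for Oas1a, Oas2, Ifit3, Mx2, Rsad2, Rtp4 and Xaf1, where wild-type replicates 2 and 3 show blue. Oas3 shows the opposite, and Igtp and Ifi47 are pale on every array.

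The start regions of 6 members are shown to place these families beside the elements through which interferon acts. Windows of 300 bases around the RefSeq start, from the GRCm38.p6 build, were matched for 30 members by symbol. The core of the interferon-stimulated response element was searched as GAAANNGAAA, or TTTCNNTTTC on the other strand, and stood in 15 of the 30, against 3.99% of 27025 genes with a window. The palindromic gamma-activated sequence TTCNNNGAA stood in 9 of the 30, against 9.55%. Cores were in 2 of 4 OAS, 2 of 3 IFIT, 4 of 5 GBP and IRG, 2 of 2 sensor and 0 of 3 antigen-processing genes. A match is a run of letters, not a bound site. The 250 bases before the start of 6 members follow, 5′ to 3′ on the gene's strand, with matches in capitals and overlapping matches joined.

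Ifit1: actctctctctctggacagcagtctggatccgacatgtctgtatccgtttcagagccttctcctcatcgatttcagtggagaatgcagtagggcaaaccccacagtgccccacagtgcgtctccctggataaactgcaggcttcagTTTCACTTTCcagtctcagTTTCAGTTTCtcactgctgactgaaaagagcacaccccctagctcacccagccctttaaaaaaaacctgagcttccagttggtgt
Rsad2: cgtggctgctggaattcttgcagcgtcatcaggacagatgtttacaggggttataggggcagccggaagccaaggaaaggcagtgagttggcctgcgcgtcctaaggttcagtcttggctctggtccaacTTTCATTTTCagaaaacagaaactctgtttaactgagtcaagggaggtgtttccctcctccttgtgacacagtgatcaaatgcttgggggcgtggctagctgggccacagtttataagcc
Oas1a: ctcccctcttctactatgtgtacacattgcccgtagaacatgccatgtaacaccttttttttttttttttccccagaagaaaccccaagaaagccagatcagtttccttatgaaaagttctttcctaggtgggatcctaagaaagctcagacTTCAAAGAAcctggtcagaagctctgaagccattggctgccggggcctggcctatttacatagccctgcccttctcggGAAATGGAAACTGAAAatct
Oas3: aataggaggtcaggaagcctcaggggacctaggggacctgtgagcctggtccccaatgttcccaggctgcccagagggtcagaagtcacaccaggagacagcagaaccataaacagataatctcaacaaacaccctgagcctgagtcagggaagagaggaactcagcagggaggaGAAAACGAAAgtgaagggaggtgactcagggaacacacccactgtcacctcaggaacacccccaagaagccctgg
Gbp3: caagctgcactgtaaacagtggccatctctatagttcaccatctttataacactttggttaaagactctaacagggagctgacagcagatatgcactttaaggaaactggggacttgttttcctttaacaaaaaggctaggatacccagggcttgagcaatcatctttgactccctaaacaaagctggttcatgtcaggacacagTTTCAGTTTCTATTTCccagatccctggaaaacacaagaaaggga
Igtp: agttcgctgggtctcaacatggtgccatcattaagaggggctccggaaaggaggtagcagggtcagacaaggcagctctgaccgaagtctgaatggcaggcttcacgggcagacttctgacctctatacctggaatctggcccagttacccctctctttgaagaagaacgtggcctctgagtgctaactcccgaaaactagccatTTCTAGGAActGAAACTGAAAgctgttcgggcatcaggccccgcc

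Ifit1 lies on the plus strand, and its printed stretch, chr19:34640639-34640888, holds cores that begin at -104 and -85 from the start. The Rsad2 stretch, chr12:26456453-26456702 on the minus strand, has a core at -120. The Oas1a stretch, chr5:120907526-120907775 on the minus strand, has overlapping cores at -20 and -14 and a gamma-activated sequence at -98. The Oas3 stretch, chr5:120777660-120777909 on the same strand, has a core at -75. Gbp3 is shown at chr3:142559794-142560043 on the plus strand, with overlapping cores at -45 and -39, and its other RefSeq window has none. Igtp, at chr11:58199306-58199555 on the plus strand, has a gamma-activated sequence at -45 just before a core at -34, without overlap. A core stands before each gene shown: Ifit1, Rsad2 and Oas1a, which had positive differences between the groups, Igtp, at 0.12, and Oas3 and Gbp3, which had negative ones. A relation between match and difference was not tested.

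The nucleic acid sensors lay above 0 in all 4 cases. Ddx58, which encodes the RNA helicase RIG-I, had signals of 440, 657 and 524 in iTreg and of 481, 308 and 226 in wild type. Its difference was 0.70 ± 0.34 (SE, n = 3 arrays a group), with an adjusted p of 0.693 in limma. Only wild-type replicate 1 reached into the iTreg range. The other Ddx58 probe sets gave 0.80 and 0.20, and on the latter iTreg replicate 1, at 92.2, lay below every wild-type array. Ifih1, which encodes the sensor of long double-stranded RNA MDA5, had 429, 170 and 438 in iTreg against 247, 118 and 171. It differed by 0.84 ± 0.43 (adjusted p = 0.706, limma), and iTreg replicate 2 lay among the wild-type arrays.

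Dhx58, whose product LGP2 regulates the other RNA helicase sensors, had signals of 133, 188 and 204 in iTreg against 94.99, 89.2 and 90.1. The groups did not overlap, and the wild-type arrays lay close together, with a mean of 91.4 ± 3.13 (SD, n = 3). The difference was 0.81 ± 0.37 (SE; adjusted p = 0.651, limma), and its other probe sets gave 0.92 and 0.56. Zbp1, a sensor of left-handed nucleic acids, had 1057, 1099 and 937 in iTreg against 986, 620 and 670, a difference of 0.46 (adjusted p = 0.743, limma). As with Ddx58, wild-type replicate 1 alone lay among the iTreg arrays.

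Among the transcription factors and feedback regulators, no member passed the test. Irf7, the amplifier of type I interferon production, had signals of 100, 276 and 94.6 in iTreg against 125, 80.4 and 60.03. Its difference was 0.62, with iTreg replicate 2 the highest array and the other iTreg arrays among the wild-type ones. Irf8, better known for guiding myeloid and dendritic cell development, had 136, 206 and 155 against 84.0, 114 and 130, so the groups did not overlap, and here wild-type replicate 1 was the lowest array. Its difference was 0.53 (adjusted p = 0.787, limma). Stat2 and Irf9, subunits of the complex that binds the response element, differed by 0.43 and 0.35, and the wild-type range overlapped iTreg for both. Irf1, the main transcription factor of the gamma response, had 1168, 1995 and 703 against 1612, 1504 and 1462, with iTreg arrays on both sides of wild type. Socs1, a suppressor of cytokine signalling, had signals of at most 13.8 on every array, below the background mark, and was not tested.

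The IFIT genes had higher mean signals in iTreg in all 3 cases. IFIT proteins bind viral RNA and limit its translation. Ifit1 had signals of 1274, 1433 and 1291 in iTreg and of 827, 280 and 424 in wild type. Every iTreg array lay above every wild-type array, and wild-type replicate 1 came nearest. The means were 1333 ± 87.7 and 511 ± 284 (SD, n = 3 each), and the difference was 1.49 ± 0.36 (SE), with an adjusted p of 0.250 in limma.

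Ifit2 had 768, 671 and 577 in iTreg against 424, 417 and 279, again without overlap. Its difference was 0.84 ± 0.30 (SE; adjusted p = 0.555, limma), and wild-type replicate 1 did not stand apart from replicate 2. Ifit3 had 442, 362 and 171 against 357, 121 and 97.9, so the iTreg and wild-type ranges overlapped. It differed by 0.82 ± 0.50 (adjusted p = 0.740, limma). Ifit3 has a near-identical neighbour, and its probe set may read both.

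**Figure D2:**
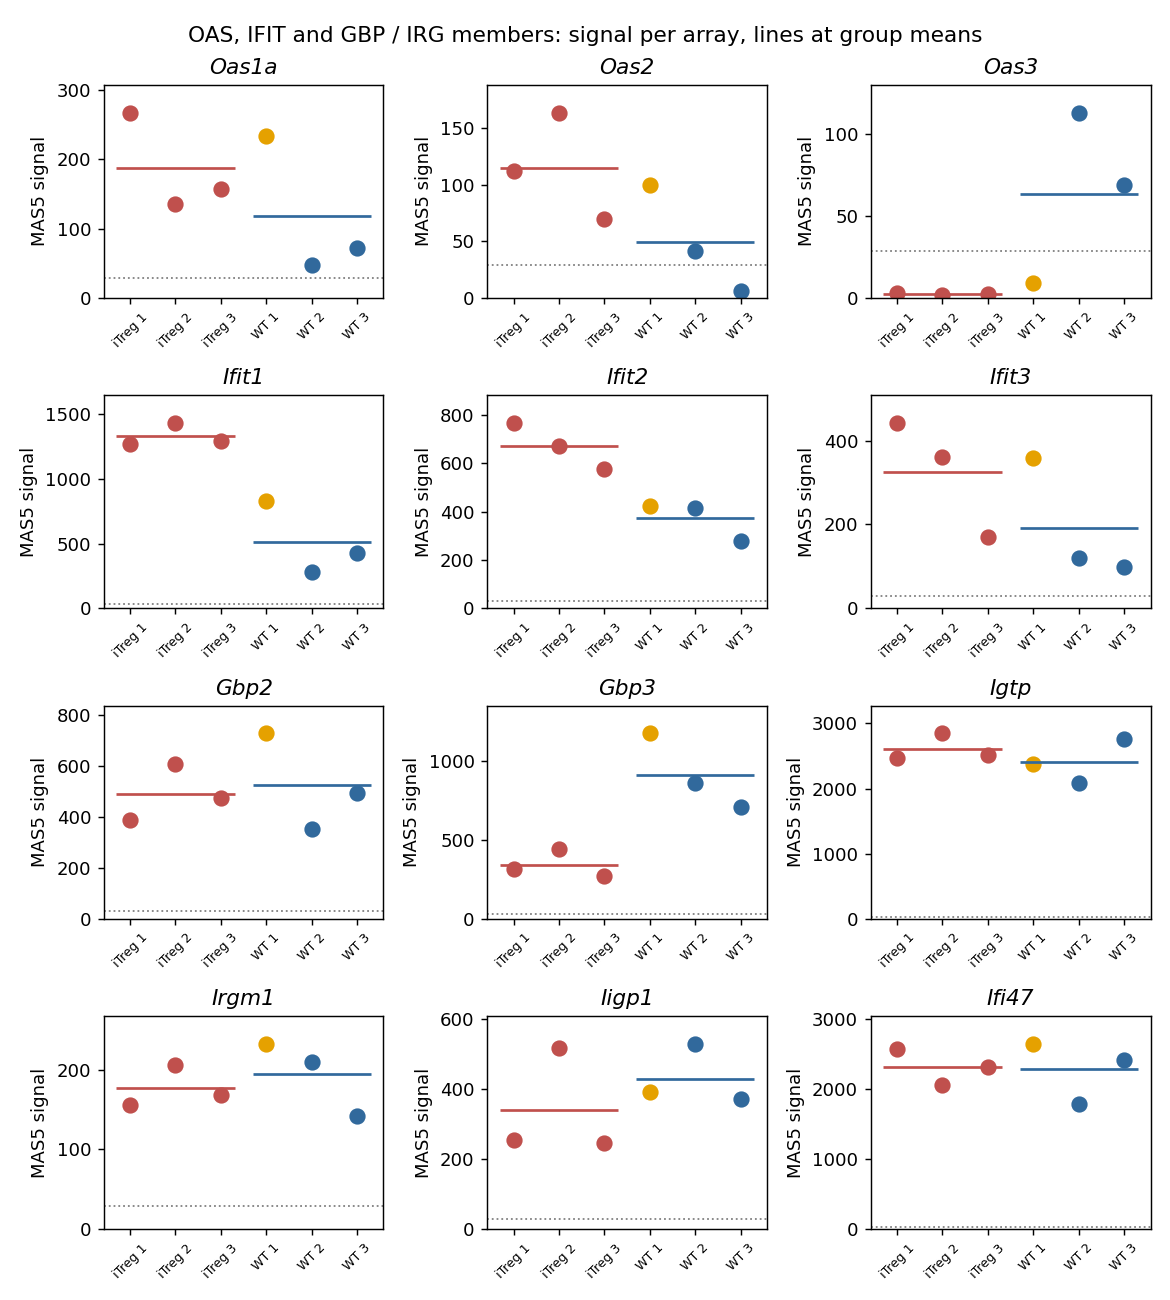
Points show the signal of the 12 tested OAS, IFIT, GBP and IRG members on each array on linear axes, with iTreg in red, wild-type replicate 1 in orange and wild-type replicates 2 and 3 in blue. Horizontal lines mark group means, and the dotted line marks 28.5, the highest signal of an unspiked control. Oas1a and Ifit3 show the orange point among the red points, and Gbp3 shows all wild-type points above all red ones.

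The OAS family makes short adenylate chains that activate RNase L, which cuts viral and cellular RNA. Its members had differences of both signs. Oas2 had signals of 112, 163 and 70.0 in iTreg and of 99.2, 41.3 and 6.33 in wild type. The difference was 1.25 ± 0.56 (SE; adjusted p = 0.652, limma), with wild-type replicate 1 inside the iTreg range. Oas1a had 267, 135 and 158 against 234, 47.7 and 71.3, and differed by 0.81 ± 0.51 (adjusted p = 0.754). Oas1 genes are close copies of each other, so the Oas1a probe set may also read a neighbour.

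Oas3 had the opposite sign. Its signals were 2.64, 1.94 and 2.03 on the iTreg arrays, all below the background mark, and 8.84, 113 and 69.1 on the wild-type arrays. Wild-type replicates 2 and 3 alone lay above background, and only through them did Oas3 enter the test. Its difference was -1.83 ± 0.51 (SE; adjusted p = 0.384, limma). The size depends on the pseudocount, from -3.75 with 1 to -0.86 with 64, since the iTreg signals lie below the background mark. Oas3 was thus near background on wild-type replicate 1, the array on which Oas1a and Oas2 were highest in that group. Oasl1 and Oasl2, of the OAS-like branch, had at most 42.3 and 9.32 on any array and were not tested.

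Other effectors spread over both signs. Rsad2, whose product viperin makes a chain-terminating nucleotide, had signals of 240, 388 and 74.4 in iTreg and of 288, 5.24 and 15.2 in wild type. Wild-type replicates 2 and 3 were below the background mark while replicate 1 was among the iTreg arrays. The difference was 1.85 ± 0.86 (SE; adjusted p = 0.660, limma), and its other probe sets gave 0.44 and 0.82. Rtp4, a chaperone of receptor proteins, had 469, 707 and 695 against 789, 236 and 229, with wild-type replicate 1 the highest of all 6 arrays. Its difference was 0.78 ± 0.44 (adjusted p = 0.721, limma), and its other probe set gave -0.19.

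Parp14, an ADP-ribosyltransferase of the macrodomain family, had 2377, 2197 and 3726 in iTreg against 1765, 1453 and 1707, without overlap. It differed by 0.71 ± 0.28 (SE; adjusted p = 0.612, limma), although its other probe set gave 0.10. Ifi35, a leucine-zipper partner of Nmi, had 1812, 1750 and 1792 against 2686, 2466 and 3692. Here the iTreg arrays lay close together and below every wild-type array, a difference of -0.70 ± 0.26 (adjusted p = 0.581, limma). The other Ifi35 probe sets gave -0.37 and -0.62.

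For the remaining effectors the groups overlapped. Mx1 and Mx2, dynamin-like GTPases that trap viral capsids and polymerases, differed by 0.15 and 0.31, and each had 2 arrays a group above the background mark. Xaf1, a regulator of apoptosis, differed by 0.076 and the exonuclease Isg20 by 0.13. Usp18, which removes ISG15 from proteins and damps the receptor, and Parp9 stood at -0.043 and -0.098. Bst2, or tetherin, which holds budding virus at the membrane, was at -0.47. All of these except Bst2 changed sign when an array was left out.

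The GBP and IRG GTPases, which attack the vacuoles of intracellular microbes, showed a single member that stood apart. Gbp3 had signals of 318, 440 and 269 in iTreg and of 1177, 860 and 708 in wild type. The groups did not overlap, with means of 342 ± 88.2 and 915 ± 239 (SD, n = 3 each). Its difference of -1.37 ± 0.31 (SE) had the smallest adjusted p of the members, 0.204 in limma. It lay between -1.56 and -1.18 when any array was left out.

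Igtp, also known as Irgm3, had 2475, 2847 and 2517 in iTreg against 2380, 2088 and 2760. Ifi47 had 2575, 2056 and 2322 against 2649, 1788 and 2422. These differed by 0.12 ± 0.25 and 0.033 ± 0.26 (SE), with adjusted p of 0.932 and 0.987 in limma, and Ifi47 turned to -0.0011 after quantile normalization. Gbp2 had 387, 607 and 474 against 729, 353 and 493, a difference of -0.063 ± 0.34, which turned to 0.059 with arrays scaled to a common median. Irgm1, the regulator of the other IRG proteins, had 156, 206 and 168 against 233, 210 and 142, and stood at -0.11 ± 0.36 and turned to 0.0067 under the same scaling. Iigp1 had 256, 519 and 246 against 391, 530 and 371, and differed by -0.39 ± 0.36 (adjusted p = 0.844, limma).

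The antigen-processing members had group differences below 0 in the fit of all 6 arrays, Tap1 only slightly, and none passed the test. Psmb8 and Psmb9 are subunits of the immunoproteasome, which cuts proteins for presentation. Psmb8 had 1700, 2233 and 1230 in iTreg against 2043, 2127 and 3312, a difference of -0.54 (adjusted p = 0.721, limma). Psmb9 had 2154, 4627 and 2636 against 3028, 3591 and 4228, a difference of -0.27. Tap1, a subunit of the peptide transporter, had 365, 690 and 639 against 531, 575 and 602 and differed by -0.060, which turned to 0.063 with arrays scaled to a common median and to 0.22 without iTreg replicate 1. The ranges of the groups overlapped in each case.

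**Figure D3:**
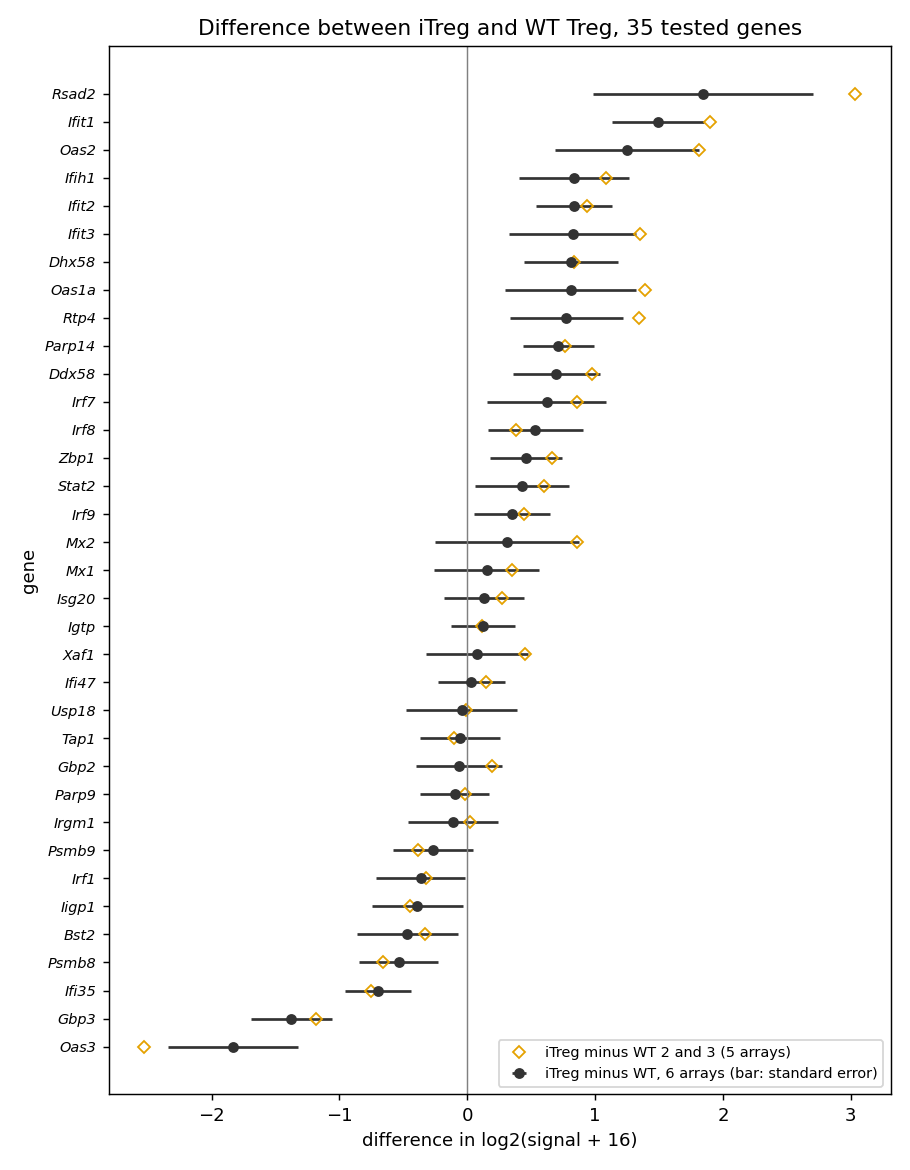
Filled points give the difference of each of the 35 tested members, iTreg minus wild type in log2(signal + 16), from all 6 arrays, with bars of 1 standard error. Open diamonds give the same from the 5 arrays without wild-type replicate 1. The diamonds of Rsad2, Rtp4, Oas1a and Ifit3 lie to the right of their points, that of Oas3 lies to the left, and those of Igtp and Dhx58 cover theirs.

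Wild-type replicate 1 stood apart from the other wild-type arrays on the interferon genes. Of the 38 measured members, 29 were higher on it than on both wild-type replicates 2 and 3, with a median of 0.42 above their mean, while all genes had a median of -0.011. Among the genes tested this held for 26 of 35 members, or 74.3%, against 30.3% of all genes. By more than 1 log2 unit, 7 of 35 members exceeded both other arrays, against 1.67% of all genes. These were Oas1a, Oas2, Ifit3, Mx2, Rsad2, Rtp4 and Xaf1. A single member, Oas3, lay below both by that much, against 0.98% of all genes, and it entered the test only through those other arrays.

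Rsad2 had 288 on wild-type replicate 1 and lay below the background mark on the other wild-type arrays, so the size of its gap is set by the pseudocount. On the other Rsad2 probe sets wild-type replicate 1 had 49.2 and 17.5, the latter below the mark. Rtp4 exceeded the higher of the other arrays by 1.67, Oas1a by 1.52 and Ifit3 by 1.45. Mx2, Xaf1 and Oas2 exceeded it by 1.09, 1.02 and 1.01. By subfamily, wild-type replicate 1 minus the mean of replicates 2 and 3 had a median of 1.22 for IFIT, 0.79 for OAS, 0.67 for the sensors and 0.42 for the other effectors. The OAS value was that of Oasl1, below the background mark on every wild-type array. The GBP and IRG median was 0.37, with Gbp2 at 0.78 and Gbp3 at 0.58. For the transcription factors and feedback regulators it was 0.20, and for antigen processing -0.36, where 0 of 3 members exceeded both other arrays. On this array the Gapdh ratio was 2.28, against 2.53 and 2.34 on the other wild-type arrays. Its summed markers were 675 for plasmacytoid dendritic cells, against 782 and 741, and 699 for macrophages and conventional dendritic cells, against 621 and 1178. Those for CD8 T and natural killer cells summed to 842, against 620 and 525, and those for B cells to 85.2, against 138 and 129. The part of these in the interferon values was not tested.

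The mean log2 level over the 3 IFIT genes was 9.60, 9.50 and 9.04 on the iTreg arrays, 9.01 on wild-type replicate 1, and 8.02 and 7.94 on the others. Wild-type replicate 1 thus lay just under the lowest iTreg array. Over the 5 OAS genes the means were 5.87, 5.78 and 5.41, then 5.86, and then 5.42 and 5.26. For the GBP and IRG genes they were 9.19, 9.58 and 9.19, then 9.83, and then 9.51 and 9.51, so that wild-type replicate 1 was the highest of all arrays. Over all 38 members wild-type replicate 1, at 8.50, lay between the iTreg arrays, at 8.15 to 8.59, and above the other wild-type arrays, at 7.99 and 7.96.

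**Figure D4:**
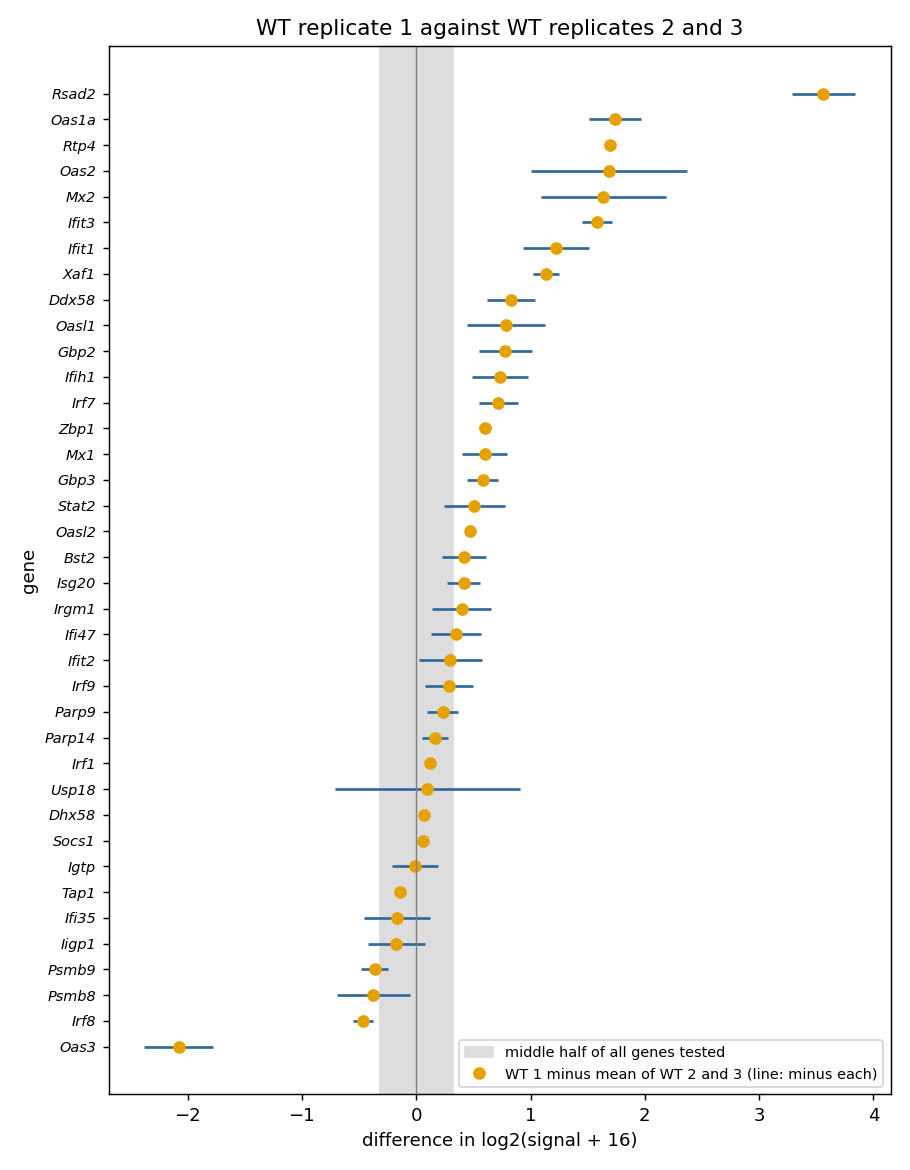
Each point is a member's log2(signal + 16) on wild-type replicate 1 minus the mean of wild-type replicates 2 and 3, in descending order, and the blue line runs between its differences from replicate 2 and from replicate 3. The grey band spans the interquartile range of all genes tested, from -0.32 to 0.33. Rsad2 lies at 3.56 and Oas3 at -2.08, both against or at signals below the background mark, and the 3 antigen-processing genes lie below 0.

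Without wild-type replicate 1, the median over the 38 members was 0.37, with 27 above 0, beside -0.0024 over all genes. The IFIT median became 1.35, the sensor median 0.90, the OAS median 0.83 and the GBP and IRG median 0.070. That OAS median was again the value of Oasl1, which was not tested. The other effectors reached 0.35, the transcription factors and feedback regulators 0.41 and antigen processing -0.39. None of the 35 members passed an adjusted p of 0.05 in limma with Benjamini-Hochberg adjustment, against 1 gene, Hopx, or 0.00916% of all genes. At an unadjusted p under 0.05, 10 members were higher in iTreg, or 28.6% against 3.08% of all genes. They were Oas1a, Oas2, Ifit1, Ifit2, Ifit3, Rsad2, Rtp4, Parp14, Ifih1 and Ddx58. Oas3, Gbp3 and Ifi35 were lower, or 8.57% against 3.67%, with Oas3 in the test only through the wild-type arrays used here. The groups did not overlap for 15 members with higher iTreg signals and for 3 with lower ones, against 9.59% and 12.9% of all genes. Rsad2 was again among the former and Oas3 among the latter.

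Rsad2 had a difference of 3.03 ± 0.63 (SE; 3 against 2 arrays) without wild-type replicate 1, with an adjusted p of 0.171 in limma. Both wild-type arrays used here are below the background mark for Rsad2, and the difference was 4.26 with a pseudocount of 1 and 1.85 with 64. Its other probe sets gave 1.05 and 1.01. The first had iTreg signals of 22.6, 19.0 and 25.3, all below the mark, and the second 37.8, 15.1 and 40.8. Ifit1 had 1.90 ± 0.34 (adjusted p = 0.106) and Oas3 -2.53 ± 0.39 (adjusted p = 0.0725). Under single alternatives to this 5-array test some members passed. With array weights these were Ifit1 at 1.90 (adjusted p = 0.0478, limma), Rsad2 at 3.29 (0.0478) and Oas3 at -2.52 (0.0322). With arrays scaled to a common median they were Oas3 (adjusted p = 0.0135, limma) and Rsad2 (0.043), and with the mean of a gene's probe sets Oas3 alone (0.0457). Of these, Oas3 is below the background mark on every iTreg array and entered the test through the 2 wild-type arrays used, and Rsad2 is below it on both of those arrays. The calls of Oas3 and Rsad2 therefore set a signal against background, and nothing is rested on them. No alternative to the 6-array test called a member.

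Among the other members, Oas2 reached 1.81 ± 0.56, Oas1a 1.39 ± 0.49, Ifit3 1.35 ± 0.48 and Rtp4 1.34 ± 0.37 (SE, 3 against 2 arrays), all with adjusted p from limma above those of Ifit1 and Oas3. The second Rtp4 probe set gave 0.20. Ifit2 was at 0.94 and Gbp3 at -1.18, and Igtp stayed at 0.12. Leaving out another wild-type array moved some of these the other way, Oas2 and Ifit2 only when that array was replicate 3. Without replicate 2, Oas1a was at 0.40, Rtp4 at 0.50 and Ifit3 at 0.63. Without replicate 3, Oas2 was at 0.63, Ifit3 at 0.49 and Rtp4 at 0.48. At an unadjusted p under 0.05 in limma, 2 members were then higher and 3 lower without replicate 2, against 2.36% and 3.61% of all genes. Without replicate 3, 2 were higher and 2 lower, against 2% and 3.22%.

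None of the other genes of the pathway passed the adjusted threshold in limma. Of 12 measured receptors, kinases and STAT or IRF factors, 9 were above 0, with a median of 0.097. Ifnar1 and Ifnar2, the type I receptor chains, differed by 0.31 and 0.045, and Ifngr1 and Ifngr2 by -0.24 and 0.16. The kinase Jak2 had 0.69 (adjusted p = 0.613, limma). Irf4, which regulatory T cells use for their effector program, had signals of 135, 156 and 145 in iTreg against 275, 365 and 849, a difference of -1.51 (adjusted p = 0.376). The receptor chains and Ifnb1 are given for their roles and were named after their values were seen.

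Of the ligands, Ifnb1 had at most 7.99 on any array, below background. Ifng had 146, 16.8 and 48.1 in iTreg against 33.7, 17.0 and 2.55, with overlap between the groups. Ifna1 differed by 0.39 and had at most 35.4 on any array. Of 4 other interferon-induced GTPases 2 were above 0, among them Gbp6 at 0.57, and Irgm2 was at -0.46. Of 43 other interferon-induced genes 32 were above 0, with a median of 0.12 in all arrays and 0.29 without wild-type replicate 1. Of the 42 tested, 4 were higher and 1 lower at an unadjusted p under 0.05, beside 3% and 4.58% of all genes. Ms4a4c, a four-span membrane protein gene, had the clearest separation, with 869, 408 and 584 in iTreg against 232, 107 and 99.9, a difference of 1.999 (adjusted p = 0.131, limma). Slfn1, a Schlafen gene, differed by 0.95 (adjusted p = 0.380). Of 9 other antigen-processing genes 5 were above 0, with Nlrc5, the activator of class I genes, at 0.86 and Psme1, a subunit of a proteasome activator, at -0.67. Their median was 0.035 on all arrays and -0.16 without wild-type replicate 1, where 3 of 9 were above 0.

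Markers of other cells were examined because a sorted sample can hold other cells. Siglech, which defines plasmacytoid dendritic cells, had at most 23.2 on any array, below the background mark, and so did Itgax of conventional dendritic cells at 14.98 and Ncr1 of natural killer cells at 8.17. Other markers of the same lists lay above the mark on every array, among them Klk1 at 156 to 258 and Cst3 at 321 to 1091. The summed signal of 7 measured B cell markers out of 8 ran from 69.1 to 139 in iTreg and from 85.2 to 138 in wild type. For 8 of 9 macrophage and dendritic cell markers it ran from 399 to 728 and from 621 to 1178, with 5 above 0 and 3 below. Lyz2, at 23.1 to 44.6 in iTreg, was at most 21.95 in wild type, below the background mark. Cst3, of opposite sign, ran from 321 to 571 in iTreg and from 551 to 1091 in wild type. The 6 of 7 plasmacytoid markers summed to 975 to 2154 in iTreg and 675 to 782 in wild type, mostly through Ccr9, a gut-homing receptor that T cells also carry. The 7 of 8 CD8 and natural killer markers summed to 825 to 1004 and 525 to 842, with 5 above 0 and 2 below. Eomes had 248, 179 and 364 in iTreg against 99.8, 129 and 51.0. Cd8b1 had 69.6, 132 and 70.05 against 63.3, 33.7 and 34.0. Neither gene overlapped between the groups or passed the adjusted threshold in limma. Gzma had 229, 87.5 and 94.9 against 131, 2.29 and 51.6, with overlap, and was highest in wild type on replicate 1. Prf1, of opposite sign, ran from 257 to 406 in iTreg and from 335 to 486 in wild type. These genes, like Klk1 and Cst3 above, were named after their values were seen. Of 9 markers of regulatory and CD4 T cells, all measured, 3 were above 0 and 6 below, with a median of -0.33. Il2ra, the interleukin 2 receptor alpha chain, had 1169, 2191 and 2256 in iTreg against 3537, 4656 and 5860, a difference of -1.35 without overlap. Tnfrsf18 was at -0.99, also without overlap, and Cd4 at 0.48. Neither Il2ra nor Tnfrsf18 passed the adjusted threshold in limma, and they were named after their values were seen. Foxp3 was near background on all arrays, at 9.16 to 54.6, so the label could not be checked on that probe set. Whether such cells account for any interferon value was not tested.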

How the data were processed

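Total RNA from sorted cells was hybridised to 6 single-colour arrays of 45101 probe sets. The deposited values are linear intensity signals that the authors made with MAS5, per the submitters' processing notes, which give no version here. The platform table gave 34945 probe sets a single gene symbol. For each gene the probe set with the highest mean log2(signal + 16) was kept, and genes above the 40th percentile of mean level, log2 4.99, were tested. A moderated linear model (lmFit, then eBayes with a trend; limma 3.58.1, R 4.3.3) compared iTreg with wild type, with Benjamini-Hochberg adjustment, on all 6 arrays and on 5 without wild-type replicate 1. The code was tested on simulated data. Alternatives changed the pseudocount, scaling, filter, variance trend, array weights, probe set choice and arrays used. The members and lists were chosen with earlier results of these data known. Values on every array are given for tested OAS, IFIT, GBP and IRG members, for members at an unadjusted p under 0.05 on 6 or 5 arrays and for the 3 largest differences each way, and other lists name their 2 smallest p-values; further values are given for the remaining members by role. Promoter windows came from RefSeq. The number of arrays limits precision.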

Additional observations from a re-analysis of the deposited data

How the results depend on the processing

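The count of all genes called in limma was 3 and became 0 with pseudocount 1, 0 without the filter, 14 with array weights and 0 without both arrays with a doubtful label, and 0 to 1 with any array left out. Without wild-type replicate 1 it was 1, and became 0 with pseudocount 64, 0 without the filter, 0 with specific probe sets, 2 without the variance trend, 8 with the 60th percentile filter, 8 with the mean of probe sets, 13 with arrays scaled to a common median and 19 with array weights. That scaling shifted iTreg against wild type by 0.11 (log2) over all genes. The number of members raised by over 1 log2 unit on wild-type replicate 1 was 7, and 4 with pseudocount 64. The IFIT median, 0.84, ran from 0.65 to 1.35 with an array left out, with 1.21 without iTreg replicate 3 and 1.35 without wild-type replicate 1. Small differences changed sign: Ifi47 to -0.0011 with quantile normalization, Gbp2 to 0.059 and Irgm1 to 0.0067 with common-median scaling, and both to 0.35 and 0.099 without the arrays with a doubtful label. With an array left out, Gbp2 ran from -0.31 to 0.20, Irgm1 from -0.31 to 0.020 and Ifi47 from -0.13 to 0.15. Other members near 0 also turned with an array left out, as ranges: Mx1 -0.047 to 0.47, Mx2 -0.24 to 0.86, Xaf1 -0.17 to 0.46, Isg20 -0.0092 to 0.27, Usp18 -0.47 to 0.35, Parp9 -0.20 to 0.0091, Tap1 -0.23 to 0.22 and Irf1 -0.74 to 0.0020. Common-median scaling also turned Usp18 to 0.080, Parp9 to 0.026 and Tap1 to 0.063. The causes were not tested.

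No sample label pairs the replicate numbers, and the main fit did not pair them. Same-numbered arrays deviated together at r of 0.17, 0.046 and 0.13, and arrays of unlike number at -0.17 to 0.053. Deviations were taken from each group's mean over few arrays, so these values cannot decide whether the samples were paired. With the replicate block 3 genes were called on all arrays and 3 without wild-type replicate 1, and 0 members in both.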
